A study of Mus musculus with 2 samples.

Results

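Tnf encodes tumour necrosis factor, and the genes described here are Tnf, the genes of its receptors, Tnfrsf1a and Tnfrsf1b, and those of the adaptors Traf1 and Traf2. These 5 genes were chosen by symbol among the 31053 genes of the deposited gene list, and each symbol was found once. Expression was measured in single cells of bone marrow-derived macrophage cultures, which are bone marrow cells of wild-type 129Sv mice grown with M-CSF, the growth factor that drives marrow cells to become macrophages. On day 7 the cells of the THP library received 1 µg/ml of a truncated, non-polymerizing form of Tamm-Horsfall protein, a glycoprotein made by the kidney. The cells of the vehicle library received the 5% dextrose vehicle. Both groups of cells were collected after 18 h, dead cells were removed, and droplet libraries were made with the Chromium system. Each condition is 1 library, and neither the number of animals nor the number of cultures behind it is given in the sources used here. The effect of the protein therefore cannot be told apart from any other difference between the cultures or libraries, and no p-value or standard error is given.

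Tumour necrosis factor is made as a membrane protein, mainly by activated macrophages and other immune cells, and the protease ADAM17 releases its soluble form. Tnfrsf1a is present on most cell types, recruits TRADD and RIPK1 through a death domain, and can lead either to NF-kB activation or to cell death. Tnfrsf1b is found mostly on immune and endothelial cells, has no death domain and binds TRAF2 directly. TRAF2 carries a RING domain and brings the ubiquitin ligases cIAP1 and cIAP2 to the receptor complex, while TRAF1 lacks the RING domain and pairs with TRAF2. Tnf and Traf1 are known target genes of NF-kB, the transcription factor that the receptors activate.

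Sequence features of Tnf and Traf1, the members whose levels differed most between the libraries, are shown first. The RefSeq promoter of Tnf on GRCm38.p6 runs from 250 bases before the gene start to 50 after it, at chr17:35201958-35202257 on the minus strand, and that of Traf1 spans chr2:34961723-34962022, also on the minus strand. Both are printed 5′ to 3′, with capitals for matches to a loose NF-kB pattern on either strand, which is GGG, then any 5 bases, then CC, and to the TATA box TATAAA. The matches do not overlap each other in these promoters.
Tnf promoter: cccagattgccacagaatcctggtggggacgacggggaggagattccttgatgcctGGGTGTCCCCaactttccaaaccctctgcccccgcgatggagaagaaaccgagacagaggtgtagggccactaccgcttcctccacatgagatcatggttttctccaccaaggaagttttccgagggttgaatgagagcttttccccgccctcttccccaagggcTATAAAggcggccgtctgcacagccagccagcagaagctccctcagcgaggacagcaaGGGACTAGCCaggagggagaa
Traf1 promoter: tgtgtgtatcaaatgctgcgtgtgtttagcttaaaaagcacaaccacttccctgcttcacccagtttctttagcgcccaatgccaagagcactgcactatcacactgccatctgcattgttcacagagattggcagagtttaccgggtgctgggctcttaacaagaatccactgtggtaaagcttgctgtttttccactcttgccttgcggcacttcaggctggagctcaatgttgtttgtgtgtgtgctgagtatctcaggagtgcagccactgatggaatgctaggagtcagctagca
In this window Tnf had 2 matches to the loose pattern, on either side of the gene start. It also had a TATAAA that begins 29 bases before the gene start, and Traf1 had no match to either motif. Members with smaller differences also had loose matches, 4 in Traf2, 3 in Tnfrsf1b and 1 in Tnfrsf1a. A link between these matches and the levels was not tested. The loose pattern is common, being present in 50.8% of the 32851 RefSeq promoters of the same length, and TATAAA in 13.6%. The stricter NF-kB consensus, held by 4.51% of those promoters, was found in none of the 5 members. Tnf mRNA is also known for the AU-rich element of its 3′ UTR, at which decay factors such as tristetraprolin bind. A 30-base stretch of that element is printed with its 5 copies of the heptamer TATTTAT, some of which overlap, in capitals, because this element sets Tnf apart from the other members.
Tnf AU-rich element: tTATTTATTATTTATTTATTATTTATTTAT
The whole 764-base Tnf 3′ UTR in GENCODE M21 held 8 copies of the heptamer on the transcribed strand, a number reached by 0.167% of 20962 genes, whereas 27.5% of those genes had at least 1. None was found in the 3′ UTRs of the other 4 members.

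The data are counts of unique molecular identifiers (UMIs), each standing for 1 captured mRNA molecule. Cells with at least 500 genes, at least 1000 UMIs and at most 10% mitochondrial UMIs were kept, 12123 of 13193 barcodes with THP and 10978 of 11584 with vehicle. Their UMIs summed to 224825484 and 207662132, with medians of 16113 and 17223 per cell. The libraries shared 42 barcodes, 38 of them among kept cells, and the 5 values changed by less than their counting error without them. Levels are UMI counts scaled to a total of 1000000 over the cells summed (CPM), with exact Poisson 95% intervals, and ratios carry exact conditional binomial 95% intervals. All these intervals cover counting error only, not variation between cultures. A gene was counted as higher or lower when it reached 10 CPM in at least 1 library and its CPM + 1 differed by 2-fold or more. Among the 8012 genes that reached 10 CPM, 0.911% were higher with THP and 2.97% were lower by that rule, and the median log2 ratio was −0.18. These were 73 and 238 genes, which became 138 and 69 with TMM factors, an edgeR scaling that sets the bulk of genes close to no change. Tnf and Traf1, 2 of the 5 members, were higher and none was lower. The members were chosen with earlier results of these data known, so this count is not independent of the data.

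Tnf, the ligand, stood at 117 CPM (95% interval 116 to 118) in the THP library and at 18.9 CPM (18.4 to 19.6) in the vehicle library, from 26314 and 3935 UMIs. The ratio was 6.18 (5.97 to 6.39), or 2.56 on the log2 scale of CPM + 1, which ranked 6 of 8012 genes from the highest. The gene lies on mm10 at chr17:35199381-35202007 on the minus strand (ENSMUSG00000024401).

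Of the receptors, Tnfrsf1a was at 74.8 CPM with THP and 79.0 CPM with vehicle (ENSMUSG00000030341, chr6:125349362-125362484, plus strand). Its ratio of 0.947 (0.927 to 0.968) is a log2 ratio of −0.08, which lies 0.10 above the median gene. The direction depends on the scaling: with TMM factors, or the similar RLE factors, which move the median gene to 0.11 or 0.10, the log2 ratio of Tnfrsf1a was 0.20. Tnfrsf1b (ENSMUSG00000028599, chr4:145213463-145246870, minus strand) was at 34.1 CPM with THP and 26.4 CPM with vehicle. That is a ratio of 1.29 (1.25 to 1.34) and a log2 ratio of 0.35, rank 413 of 8012, inside the central 95% of all genes (−1.04 to 0.56).

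The adaptors differed from each other. Traf1 (ENSMUSG00000026875, chr2:34941750-34961772, minus strand) stood at 44.9 CPM with THP against 8.56 CPM with vehicle, from 10091 and 1777 UMIs. Its ratio was 5.25 (4.99 to 5.52), its log2 ratio 2.26 and its rank 10 of 8012. Traf2 (ENSMUSG00000026942, chr2:25517982-25546940, minus strand) was at 17.7 CPM with THP and 14.1 CPM with vehicle, a ratio of 1.26 (1.20 to 1.32) and a log2 ratio of 0.31. The ligand and the TRAF2 partner Traf1 were thus past the 2-fold limit, whereas both receptors and Traf2 lay within the range that holds most genes.

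The cultures were not macrophages alone, so the members were next measured in groups of cells gated by marker genes. A cell entered a gate when the UMIs of that type's markers exceeded a set number per 10000 of its UMIs, and cells that met the limits of dissimilar types were set aside as mixed. The limits were set after the score distributions were seen. No member is among the markers. The macrophage-like gate (C1q genes, Pf4, Adgre1 and others, all 12 markers above 50 CPM) held 4930 cells with THP and 2896 with vehicle, which is 40.7% and 26.4% of kept cells. The libraries also held osteoclast-like cells marked by Atp6v0d2 and Mmp12 (634 and 613), cells high in MHC class II (867 and 935), and monocyte-like cells (391 and 567). Neutrophil-like cells (2216 and 2767) and myeloid progenitor-like cells (1365 and 1708) made up most of the rest. Fewer markers were above 50 CPM in some of these gates: 4 of 7 in osteoclast-like, 6 of 14 in MHC class II-high, 9 of 10 in progenitor-like and 11 of 13 in neutrophil-like cells of both libraries, and 9 or 10 of 10 in monocyte-like cells. In osteoclast-like cells Oscar was at 0, Ocstamp at 0.928 and 2.81 CPM and Ctsk at 29.2 and 18.9 CPM, while the median macrophage score (64.4 and 55.8 UMIs per 10000) was above that of the macrophage-like gate (54.3 and 52.2). Another 4 gates were small, with 30 to 117 cells in each library: stromal-like, B cell-like, T or NK cell-like, and mast cell- or basophil-like. Within the stromal-like gate some markers differed between the libraries, such as Col1a1 (769 and 5989 CPM) and Dcn (482 and 107 CPM), while Bgn was at 1347 and 1291 CPM. A ratio in that gate therefore cannot be told apart from a difference in the kind of cells gated. Median depth was lowest among the 6 large gates in neutrophil-like cells, at 4367.5 and 4503 UMIs, against 21074.5 and 23073 in macrophage-like cells. Gate sizes are not results, because Pf4, the macrophage marker with the highest CPM, itself differed between the libraries (2291 and 1756 CPM within the gate).

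Tnf was higher with THP in every one of the 6 large gates. Macrophage-like cells had 151 CPM with THP and 27.6 CPM with vehicle, a ratio of 5.47 (5.23 to 5.73), where 1.01% of 7884 genes were higher by the rule. Osteoclast-like cells had 122 and 17.9 CPM, a ratio of 6.83 (6.09 to 7.68), in a gate with 0.715% of genes higher. The background shares in the other 4 gates were 1.17% in MHC class II-high, 0.851% in monocyte-like, 1.45% in neutrophil-like and 0.883% in progenitor-like cells. By the same rule, genes that were lower made up 2.55% in macrophage-like, 1.86% in osteoclast-like, 4.08% in MHC class II-high, 3.18% in monocyte-like, 5.4% in neutrophil-like and 2.36% in progenitor-like cells, and no member was among them. MHC class II-high cells had 82.6 and 15.9 CPM, and monocyte-like cells 66.7 and 12.0 CPM. In neutrophil-like cells Tnf was at 80.3 CPM with THP and 23.7 CPM with vehicle, a ratio of 3.39 (3.02 to 3.81), the lowest of the 6. Progenitor-like cells had the lowest Tnf levels of the 6, with 26.0 and 5.91 CPM, yet their ratio was 4.40 (3.75 to 5.18).

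The order of Tnf levels differed between the libraries. With THP it ran from macrophage-like and osteoclast-like cells, through MHC class II-high and neutrophil-like cells, whose intervals overlapped (78.0 to 87.5 and 75.5 to 85.4), to monocyte-like and progenitor-like cells. With vehicle, macrophage-like cells were followed by neutrophil-like and then osteoclast-like and MHC class II-high cells, the last pair again with overlapping intervals. Macrophage-like cells supplied 71.6% of Tnf UMIs with THP and 53.2% with vehicle, from 55.5% and 36.5% of all UMIs. With each gate given the same weight in both libraries, the log2 ratio of Tnf over all cells was 2.36 in place of 2.56. With equal weight per cell it was 2.17. The part of cell mix in the ratio was not tested. In the 4 small gates Tnf rested on 1 to 10 UMIs per library, and the interval of each ratio included 1.

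**Figure D1:**
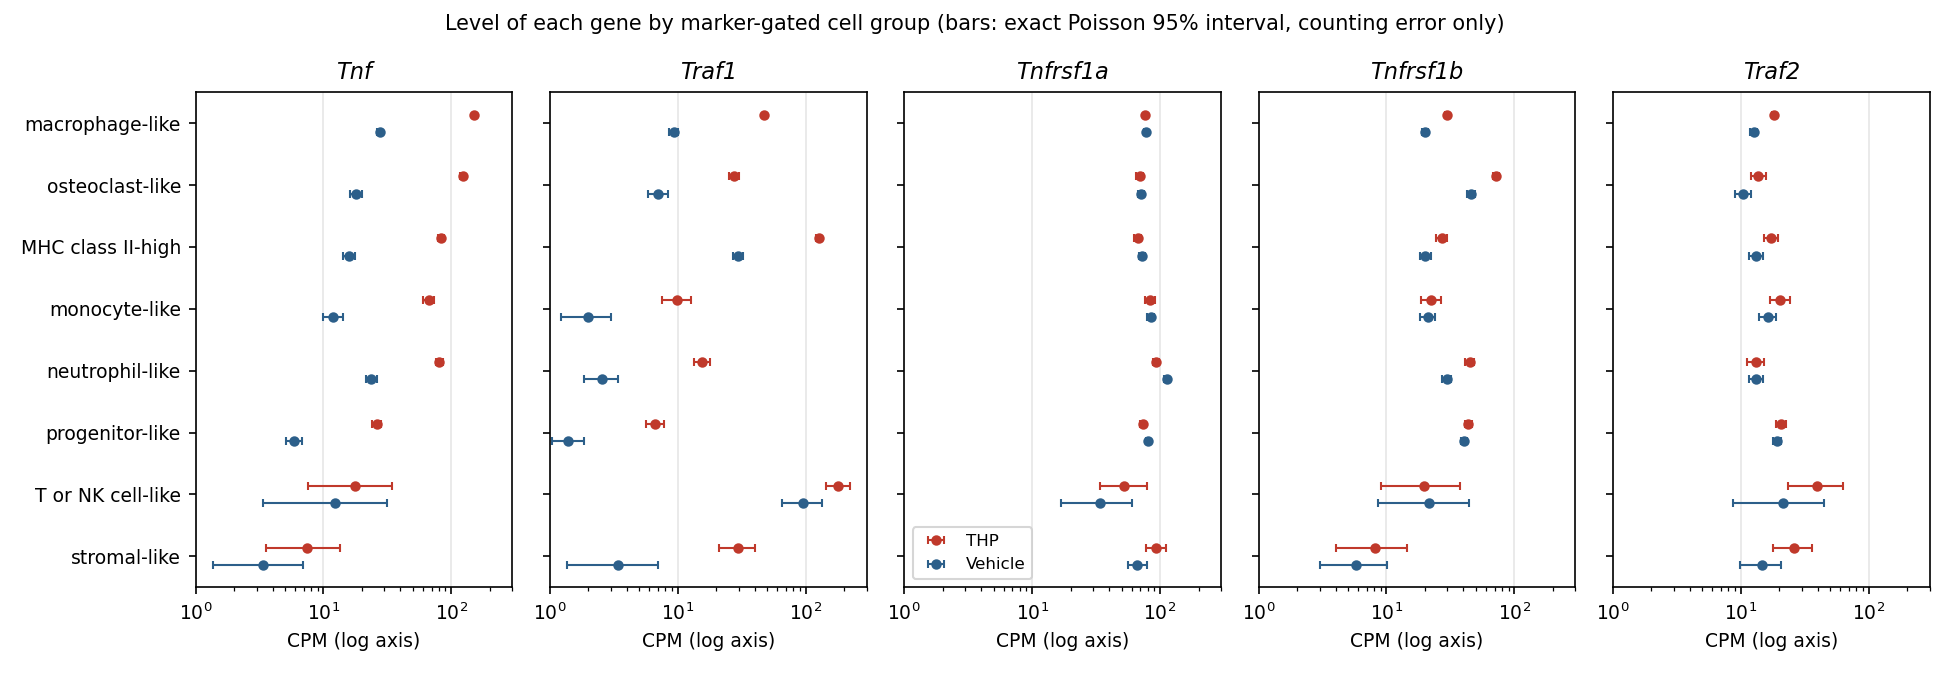
Level of each gene in CPM (log axis) in 8 marker-gated cell groups, with the THP library in red and the vehicle library in blue; points are summed UMIs of 1 library and bars are exact Poisson 95% intervals. Tnf and Traf1 separate between the libraries in all 6 large groups, from macrophage-like to progenitor-like cells, while Tnfrsf1a, Tnfrsf1b and Traf2 differ by less than 2-fold there, and Traf1 peaks in T or NK cell-like and MHC class II-high cells.

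Traf1 had another distribution over the gates than Tnf. T or NK cell-like cells had the highest level, 180 CPM with THP and 95.3 CPM with vehicle, from 82 and 31 UMIs, and a ratio of 1.89 (1.24 to 2.96). MHC class II-high cells came next with 126 and 29.6 CPM, a ratio of 4.26 (3.87 to 4.69). This gate supplied 17.8% of Traf1 UMIs with THP and 32.0% with vehicle, from 6.33% and 9.25% of all UMIs. Macrophage-like cells had 47.2 and 9.27 CPM, a ratio of 5.10 (4.71 to 5.52).

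The remaining gates had less Traf1. Osteoclast-like cells were at 27.6 CPM with THP and 7.03 CPM with vehicle. Neutrophil-like cells were at 15.5 and 2.55 CPM, from 198 and 44 UMIs. In monocyte-like cells (9.84 and 1.98 CPM) and progenitor-like cells (6.66 and 1.39 CPM) the gene stayed under 10 CPM and so was not counted, although the ratios were 4.98 (2.98 to 8.62) and 4.78 (3.44 to 6.74). Traf1 was therefore called higher in 4 of the 6 large gates. Stromal-like cells also differed, with 29.5 and 3.39 CPM from 40 and 7 UMIs, a ratio of 8.71 (3.86 to 23.0). As that gate held cells with unlike markers in the libraries, this is not read as a change within a cell type. In these stromal-like cells Tnf was at 7.38 and 3.39 CPM.

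Tnfrsf1a was the most even member across the large gates, between 67.0 and 93.3 CPM with THP and between 70.6 and 113 CPM with vehicle. Neutrophil-like cells had the highest level in the vehicle library and a ratio of 0.825 (0.767 to 0.887), or −0.28 on the log2 scale, where the median gene of that gate was at −0.24. With TMM factors of the whole libraries the log2 ratio was above 0 in all 6 large gates, from 0.0072 in neutrophil-like to 0.27 in monocyte-like cells, so the direction of Tnfrsf1a in these gates depends on the scaling. Macrophage-like cells had 75.8 CPM with THP and 77.1 CPM with vehicle, a ratio of 0.983 (0.952 to 1.02). Stromal-like cells were at 93.7 and 66.3 CPM, a ratio of 1.41 (1.10 to 1.81), and B cell-like cells had only 9.32 and 18.5 CPM, from 5 and 8 UMIs. The member passed the 2-fold rule in no large gate.

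Tnfrsf1b varied more between cell groups than between libraries. Osteoclast-like cells had the highest level of the large gates in both libraries, 72.2 CPM with THP and 45.9 CPM with vehicle, a ratio of 1.57 (1.44 to 1.72). Progenitor-like cells were at 43.7 and 40.4 CPM and neutrophil-like cells at 44.8 and 29.6 CPM, a ratio of 1.51 (1.34 to 1.71) in the latter. In macrophage-like cells Tnfrsf1b was at 29.5 and 20.1 CPM, a ratio of 1.47 (1.39 to 1.56), and in MHC class II-high cells at 27.0 and 20.1 CPM. Monocyte-like cells differed little, with 22.3 and 21.0 CPM and a ratio of 1.06 (0.852 to 1.32).

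Traf2 lay between 10.4 and 20.7 CPM in all large gates of both libraries. Its ratio was highest in macrophage-like cells, 18.2 against 12.6 CPM or 1.44 (1.33 to 1.55), and lowest in neutrophil-like cells, 13.1 against 13.2 CPM or 0.994 (0.809 to 1.22), whose log2 ratio became 0.26 with TMM factors. The interval of the ratio included 1 in monocyte-like, neutrophil-like and progenitor-like cells. Neither Tnfrsf1b nor Traf2 passed the 2-fold rule in any large gate.

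**Figure D2:**
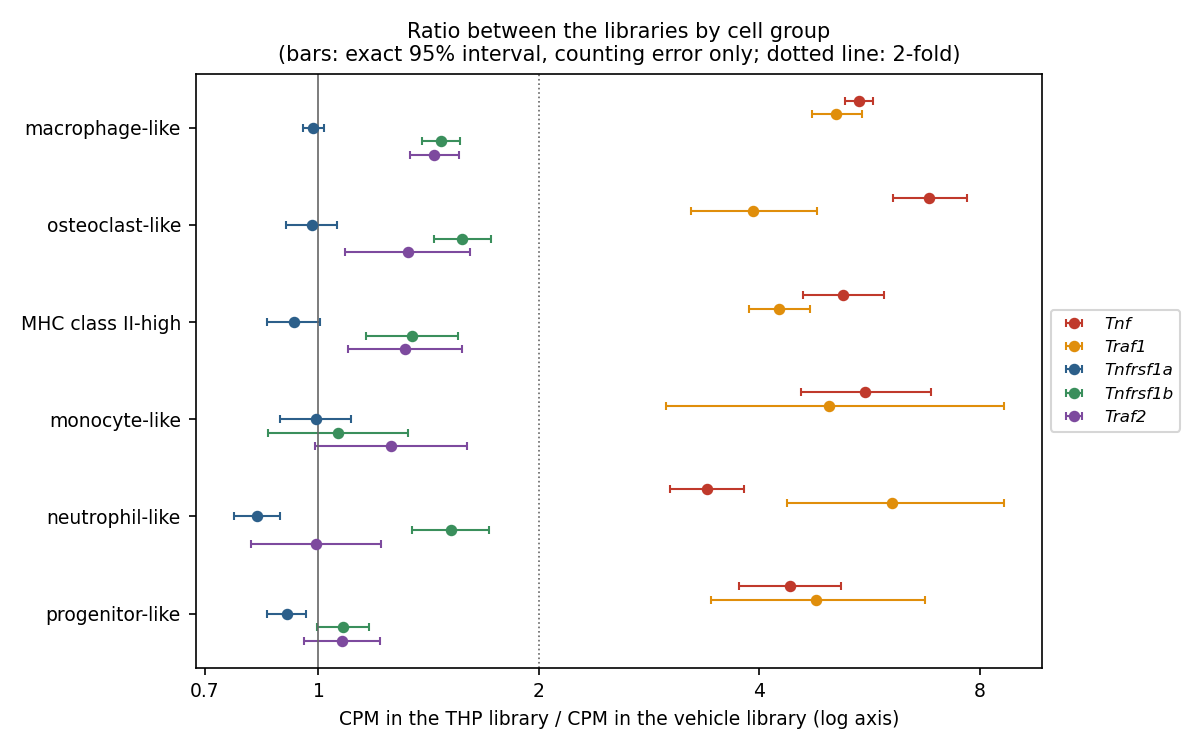
Ratio of CPM in the THP library to CPM in the vehicle library (log axis) for the 5 genes in the 6 large cell groups; bars are exact 95% intervals that cover counting error only, the solid line marks no difference and the dotted line 2-fold. Tnf and Traf1 lie above 2-fold in every group, with ratios from 3.39 to 6.83, and the other 3 genes lie between 0.825 and 1.57.

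Splits within gates, chosen after the data were seen, showed that Tnf and Tnfrsf1b also varied among neutrophil-like cells. Cells with high Ngp, Camp and Ltf, the secondary granule genes of immature neutrophils, had 54.7 CPM of Tnf with THP and 18.4 CPM with vehicle. Neutrophil-like cells low in these genes had 118 and 34.1 CPM, so they were the higher group in both libraries. Tnfrsf1b was likewise at 27.1 and 23.3 CPM in the granule-high cells and at 70.9 and 41.7 CPM in the granule-low cells. The granule-low cells were shallower, with medians of 2629 and 2312 UMIs against 5256 and 5747.5, and the part of depth in this was not tested. Among macrophage-like cells, those high in C1q genes had 160 and 28.3 CPM of Tnf and those low in them 146 and 27.2 CPM. The Tnfrsf1b ratio was 1.21 (1.11 to 1.33) in the C1q-high and 1.70 (1.56 to 1.84) in the C1q-low macrophage-like cells.

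The difference in Tnf was also seen in how many cells had a UMI. In the macrophage-like gate 75.6% of cells with THP and 36.7% with vehicle had at least 1 Tnf UMI. After each cell was thinned at random to 5000 UMIs, with shallower cells left out (4766 and 2823 cells remaining), the shares were 42.8% (exact binomial 95% interval 41.3 to 44.2) and 12.2% (11.0 to 13.4). Free RNA in droplets adds UMIs to cells that do not express a gene, and stromal-like cells, which should lack Tnf, had a UMI in 12.5% and 9.26% of cells as sequenced. Those cells had median depths of 19264 and 36757 UMIs, and their thinned shares were 4.92% and 1.89%, of 61 and 53 cells.

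Few cells carried many Tnf molecules. At 5000 UMIs per cell, 18.1% of macrophage-like cells with THP and 2.05% with vehicle had at least 2 Tnf UMIs, and 1.76% and 0.213% had at least 5. The highest cell had 36 with THP and 12 with vehicle. The top 10% of cells held 46.8% of the thinned Tnf UMIs with THP. Thinned shares of cells with Tnf were 35.6% and 8.89% in osteoclast-like, 26.5% and 5.21% in monocyte-like, 21.6% and 6.81% in MHC class II-high, 20.2% and 7.53% in neutrophil-like, and 9.94% and 3.01% in progenitor-like cells. The neutrophil-like shares rest on 1000 and 1262 cells, because 1216 and 1505 shallower cells were left out. Granule-low cells, the shallower group with more Tnf, are thus underrepresented in them. Both progenitor-like shares lay within the intervals of the stromal-like shares (1.03 to 13.7% with THP and 0.0478 to 10.1% with vehicle). So did the vehicle shares of the other large gates except macrophage-like cells. The stromal-like intervals are wide, resting on 61 and 53 cells, and by share alone these shares are not read as expression.

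**Figure D3:**
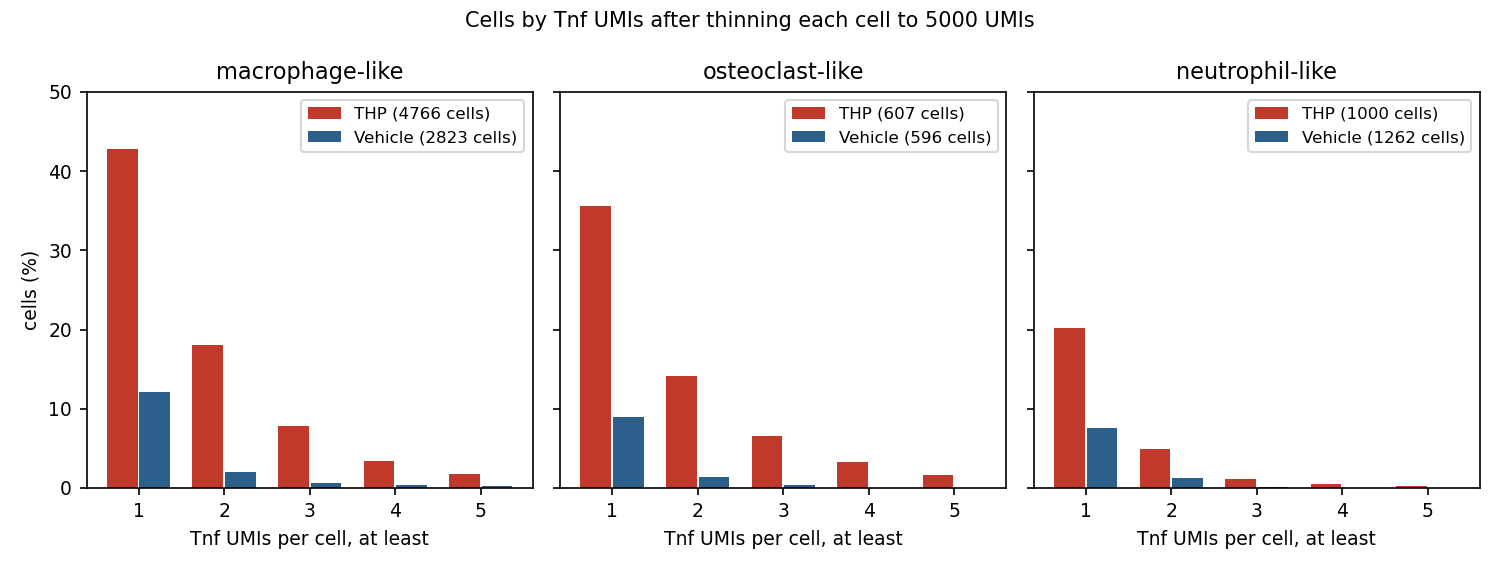
Percentage of cells with at least 1 to 5 Tnf UMIs (horizontal axis) after each cell was thinned to 5000 UMIs, in macrophage-like, osteoclast-like and neutrophil-like cells of the THP (red) and vehicle (blue) libraries, with the number of cells in each legend. Every THP bar is taller than the vehicle bar beside it, for example 42.8% against 12.2% at 1 UMI or more in macrophage-like cells. Cells under 5000 UMIs were left out, among them 1216 and 1505 neutrophil-like cells.

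In thinned cells Traf1 was found in 20.5% of macrophage-like cells with THP and 3.79% with vehicle, and in 46.0% and 11.7% of MHC class II-high cells. As sequenced these shares were 53.7% and 17.3%, and 72.2% and 32.6%. B cell-like cells, where Traf1 rested on 3 and 4 UMIs, had it in 1.71% and 5.63% of cells as sequenced, at median depths of 2621 and 3567 UMIs. After thinning it was found in 0 of 35 B cell-like cells with THP. That allows a share of up to 8.57% by a limit of 3 counts, or 10.0% by the exact interval. With vehicle it was found in 3.85% of 26 B cell-like cells (0.0973 to 19.6). Both vehicle shares of Traf1 lay within that interval, which rests on 1 of 26 cells and cannot decide. They are not read as expression from that comparison. Thinned stromal-like cells had Traf1 in 11.5% (4.74 to 22.2) of 61 cells with THP and 1.89% (0.0478 to 10.1) of 53 with vehicle. Whether B cell-like or stromal-like cells lack Traf1 was not tested. With vehicle, Traf1 was found in 0.542% (0.248 to 1.03) of thinned progenitor-like and 0.792% (0.381 to 1.45) of neutrophil-like cells. Monocyte-like and osteoclast-like cells had 0.718% (0.196 to 1.83) and 3.19% (1.93 to 4.93). The MHC class II-high share, with a lower limit of 9.69%, lay above the intervals of these large gates. Among them, the macrophage-like interval (3.12 to 4.56) overlapped only the osteoclast-like one. The part of free RNA was not tested. Tnfrsf1a was found in 31.7% and 32.1% of thinned macrophage-like cells, Tnfrsf1b in 13.2% and 10.0%, and Traf2 in 8.52% and 5.88%. As sequenced, these were 76.2% and 78.5%, 40.4% and 36.9%, and 34.0% and 26.8%. Thinned stromal-like cells had Tnfrsf1b in 3.28% and 0% of cells. The latter, 0 of 53, allows up to 5.66% by a limit of 3 counts, or 6.72% by the exact interval. They had Tnfrsf1a in 32.8% and 34.0%, and Traf2 in 6.56% and 11.3% of cells. The Tnfrsf1a and Traf2 shares of macrophage-like cells were thus not distinguishable from those of stromal-like cells at this depth. Stromal-like cells are not expected to lack these genes, and had Tnfrsf1a at 93.7 and 66.3 CPM and Traf2 at 25.8 and 14.5 CPM. This comparison therefore cannot tell expression from free RNA. In thinned macrophage-like cells with THP, Traf1 was found in 20.3% of cells that had a Tnf UMI and in 20.7% of cells that had none, with overlapping intervals (18.5 to 22.1 and 19.2 to 22.2). Tnfrsf1b was found in 14.8% and 12.1% of them. In osteoclast-like cells with vehicle, Traf1 was found in 11.3% (4.27 to 23.0) of the cells with Tnf and in 2.39% (1.28 to 4.06) of the others. These are 6 of 53 and 13 of 543 cells. With THP the shares were 15.3% (10.8 to 20.8) and 11.5% (8.52 to 15.1). The vehicle pair is the only one with intervals apart among all members, large gates and libraries compared. It was picked for that and is not read as co-expression.

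The rest of the pathway was described from 8 lists of genes, counted over all kept cells, in which 0.911% of all genes were higher and 2.97% lower. The 12 genes of Tnf processing and shedding gave 9 that reached 10 CPM, of which none was higher and Timp3 was lower. Timp3 encodes an inhibitor of ADAM17 and stood at 8.73 CPM with THP and 31.4 CPM with vehicle. Its UMIs came mostly from stromal-like and mixed cells, 77.4% with THP and 95.2% with vehicle, and in macrophage-like cells it was at 3.18 and 3.12 CPM. Adam10, a sheddase related to Adam17, was at 71.1 and 114 CPM, and Rhbdf2, which brings ADAM17 to the cell surface, at 26.9 and 18.3 CPM. The list's median log2 ratio was −0.26, against −0.18 for all genes. Of 14 genes that act on Tnf mRNA or its synthesis, 1 was higher and none lower, with a median of −0.33. The higher one was Zc3h12a, an endonuclease that degrades inflammatory mRNAs, at 18.6 and 8.26 CPM. The kinase gene Mapkapk2 was at 223 and 137 CPM and the decay factor gene Zfp36l2 at 103 and 191 CPM.

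Most other ligands and receptors of the superfamily stayed under 10 CPM. Of 17 other ligands only Ltb, Tnfsf9 and Tnfsf12 reached 10 CPM over all kept cells. None passed the 2-fold rule there, with a median log2 ratio of 0.11. Ltb, which encodes lymphotoxin beta, was at 30.4 CPM with THP and 17.1 CPM with vehicle, and passed the rule with TMM factors. Within gates Ltb was higher in monocyte-like (21.3 and 3.48 CPM), progenitor-like (28.6 and 8.30), neutrophil-like (284 and 120) and MHC class II-high cells (20.8 and 9.79). In those gates 0.851% to 1.45% of all genes were higher. In macrophage-like and osteoclast-like cells Ltb stayed under 10 CPM. Another ligand was lower in MHC class II-high cells, where 4.08% of genes were. Of 26 other receptors 7 reached 10 CPM, 2 were higher, none was lower and the median was 0.01. The higher ones were Cd40, a costimulatory receptor of antigen-presenting cells, at 14.5 and 3.13 CPM, and the death receptor gene Fas, at 44.7 and 12.8 CPM. Tnfrsf21 was at 13.4 and 24.6 CPM.

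The signalling genes mostly lay near the median gene. Of 16 other Traf proteins and Traf binders 12 reached 10 CPM, 1 was higher and 1 lower, with a median of −0.23. Tnip1, which binds the ubiquitin-editing enzyme A20, was at 117 CPM with THP and 41.7 CPM with vehicle. Traf3ip3 was at 27.1 and 55.7 CPM, just past the 2-fold limit, and was not past it with TMM factors. Of 33 genes of the receptor complex and its ubiquitin machinery 28 reached 10 CPM, 3 were higher and none lower, with a median of −0.24. These were Tnfaip3, which encodes A20 itself, at 18.4 and 7.35 CPM, Ikbke, a kinase gene of the IKK family, at 114 and 50.5 CPM, and Birc3, which encodes cIAP2, at 47.8 and 22.7 CPM. All 15 genes of the cell death arm reached 10 CPM, and their median was 0.14. Bcl2a1b, a survival gene of the Bcl2 family whose near-identical copies can share reads, was higher at 143 and 39.4 CPM, and none was lower. Mlkl, the executor of necroptosis, was at 15.9 and 24.8 CPM.

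The last list holds genes known to be induced by Tnf. Of 28 listed, 23 reached 10 CPM, 15 were higher and none lower, with a median log2 ratio of 1.33, against 0.911% higher and a median of −0.18 over all genes. Like the other lists, it was chosen with earlier results of these data known, so its count is not independent of the data. Many of these genes are induced by other NF-kB-activating stimuli too, and the list shares Birc3, Tnfaip3 and Tnip1 with lists above. The neutrophil chemokine gene Cxcl1 was at 54.3 CPM with THP and 5.50 CPM with vehicle, a log2 ratio of 3.09. Il1b, the gene of interleukin-1 beta, was at 67.3 and 9.58 CPM, and Cxcl2 at 619 and 119 CPM. In the large gates 10 to 16 of the list's genes were higher, where 0.715% to 1.45% of all genes were, with medians from 0.97 in osteoclast-like to 1.63 in progenitor-like cells. Among the large gates Cxcl2 had its largest log2 ratios in progenitor-like (3.70) and neutrophil-like cells (3.67), against 1.98 in macrophage-like cells. Il1b had 4.56 in osteoclast-like cells (42.1 and 0.834 CPM) and 3.85 in macrophage-like cells (60.8 and 3.27 CPM). Those vehicle levels are low beside the pseudocount of 1, on which such ratios depend. The highest Il1b level of the large gates was in neutrophil-like cells, 236 and 61.1 CPM, with a log2 ratio of 1.93.

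**Figure D4:**
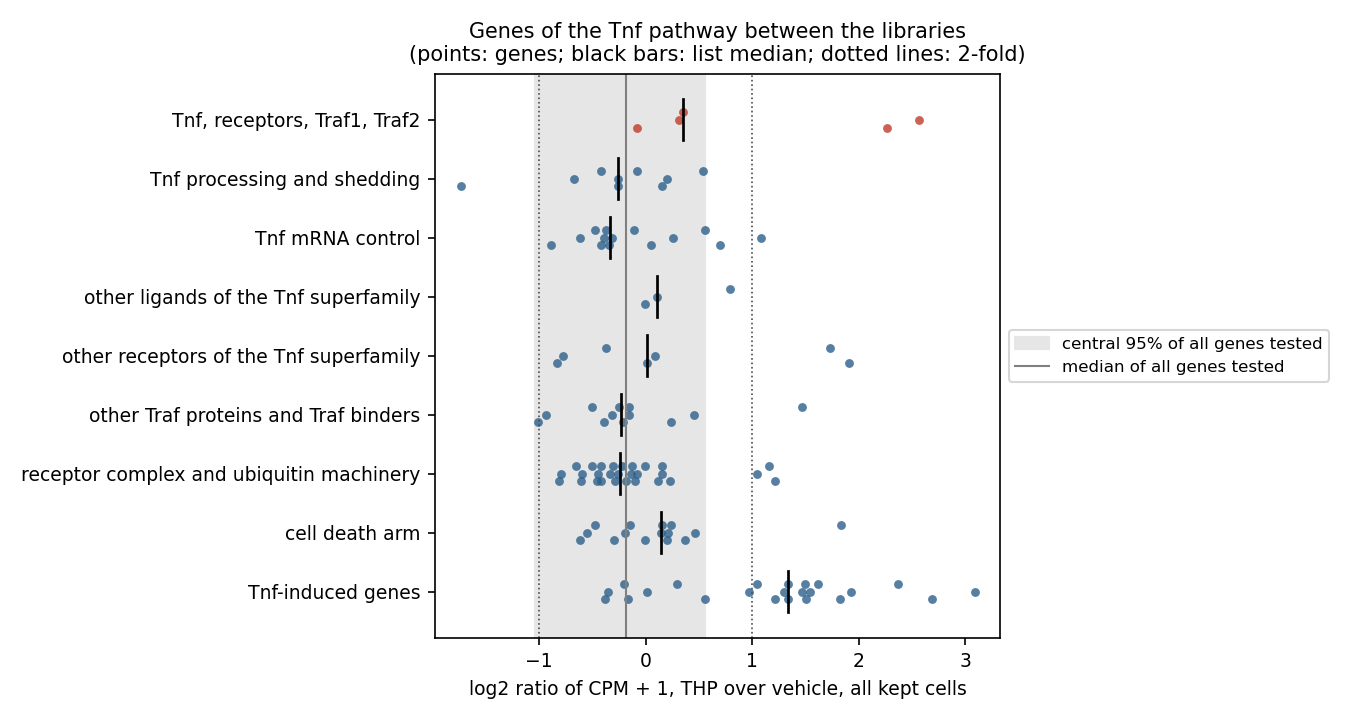
Log2 ratio of CPM + 1 between the libraries (THP over vehicle, all kept cells) for the 5 genes, in red, and for genes of the 8 pathway lists that reached 10 CPM, in blue; black bars are list medians, the grey band holds the central 95% of 8012 genes, and dotted lines mark 2-fold. Most signalling genes fall within the band, while Tnf, Traf1 and 15 of the 23 Tnf-induced genes lie to the right of the 2-fold line.

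Genes with a pattern most like that of Tnf were sought over 18 points, each a gated cell group of 1 library with at least 50 cells, by the Pearson correlation of log2(CPM + 1) among 8012 genes. Points of the same library share its depth and free RNA. Ccl3, which encodes a macrophage chemokine, came first with r = 0.91, followed by Vamp8 (0.86), Acod1 (0.85), Marcksl1 (0.85) and Cd14 (0.85). Vamp8 encodes a vesicle fusion protein, Acod1 the itaconate enzyme and Cd14 a co-receptor for lipopolysaccharide. Their levels over all cells were 184 CPM with THP and 34.4 CPM with vehicle for Ccl3, and 67.8 and 4.34 CPM for Acod1. Vamp8 had a log2 ratio of only 0.34. Among the members, r with Tnf was 0.66 for Tnfrsf1b, 0.43 for Tnfrsf1a, 0.41 for Traf1 and 0.20 for Traf2. The genes most like Tnfrsf1b were Neu1 (0.90), Lair1 (0.88), Cyba (0.87), Tnfaip8 (0.85) and Taldo1 (0.85), whose log2 ratios between the libraries lay between −0.15 and 0.22.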

How the data were processed

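The 2 droplet libraries were compared, 1 per condition. The authors deposited UMI counts per gene and barcode; the submitters' processing notes name Cell Ranger, bcl2fastq, STAR and mm10, and per the file headers the matrices are of format 2 from software 3.1.0. Counting options and the annotation release: not given in the sources used here.

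From these counts, UMIs were summed over kept cells or gates, divided by the library's or gate's total and compared as log2(CPM + 1), with a pseudocount of 1. With 1 library per group no test was run. Scaling factors came from edgeR 4.0.16 (R 4.3.3), and the other steps used Python 3.11.15, numpy 2.4.6 and scipy 1.17.1. The ratio and interval code was tested on simulated data. Zero counts would carry a limit of 3 counts. No doublet caller was run: mixed cells were set aside, and the top 5% of cells by UMIs were left out as an alternative. Besides the members, the text names the 3 genes of each list with the largest log2 ratio in either direction and the 5 genes most like Tnf and Tnfrsf1b; Ltb, Tnfsf9 and Tnfsf12 are all that reached 10 CPM in their list. A gene so chosen is not reported here. Members and lists were chosen with earlier results of these data known. Gene coordinates come from GENCODE M21.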

Additional observations from a re-analysis of the deposited data

Results flagged for a closer look

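Barcodes left out by the cell filter, 1070 with THP and 606 with vehicle, enter no comparison above. Among them Tnf stood at 135 CPM with THP (311 UMIs) and 26.6 CPM with vehicle (38 UMIs), and Traf1 at 63.8 CPM (147 UMIs) and 2.80 CPM (4 UMIs). In both cases the THP level lay above that of the vehicle library, as in the kept cells.

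Tnfrsf1a differed in opposite directions in a pair of cell groups: its log2 ratio was 0.49 in stromal-like cells, from 127 and 137 UMIs, and −0.28 in neutrophil-like cells, from 1192 and 1952 UMIs. With TMM factors of the whole libraries these values were 0.77 and 0.0072, so the opposite direction is not seen under that scaling. Some stromal markers also differed between the libraries within the stromal-like gate, so its ratio is not read as a change within a cell type. The difference between these ratios was not tested.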

How the results depend on the processing

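No paired analysis was possible because each condition is 1 library. There are no replicate libraries, and depth limits the 4 small gates and low shares. Over all cells, the log2 ratios with TMM and RLE factors were 2.84 and 2.84 for Tnf, 0.20 and 0.20 for Tnfrsf1a (reversed from −0.08), 0.63 and 0.62 for Tnfrsf1b, 2.53 and 2.52 for Traf1, and 0.58 and 0.58 for Traf2. With a pseudocount of 0.1 they were 2.62 for Tnf and 2.38 for Traf1, and with equal weight per cell 2.17 for Tnf, −0.24 for Tnfrsf1a and 2.14 for Traf1. With the same mix of gated types Tnf was at 2.36 and Tnfrsf1b at 0.45. After correction for transcript length they were 2.38 for Tnf, −0.18 for Tnfrsf1a, 0.43 for Tnfrsf1b and 0.42 for Traf2. The 73 higher and 238 lower genes became 138 and 69 with TMM factors, 138 and 69 with RLE factors, and 187 and 1387 with a fold limit of 1.5. Leaving out shared barcodes (chosen after seeing the data) or the top 5% of cells by UMIs, or using all barcodes, moved none of the 5 members beyond counting error. With gate limits 1.5 times as high, Tnfrsf1a in osteoclast-like cells was at 0.022 and Tnfrsf1b in monocyte-like cells at −0.12, both reversed. With macrophage markers without Pf4 (chosen after seeing the data), Traf2 in neutrophil-like cells was at 0.036, also reversed. The other 28 and 29 of the 30 gate values kept their direction. With TMM factors of the whole libraries (chosen after seeing the data), all 6 Tnfrsf1a values were reversed, to 0.26 in macrophage-like, 0.25 in osteoclast-like, 0.17 in MHC class II-high, 0.27 in monocyte-like, 0.0072 in neutrophil-like and 0.14 in progenitor-like cells, as was Traf2 in neutrophil-like cells, to 0.26. The other 23 gate values kept their direction. The cause of these shifts was not tested. Thinning moved all 10 shares of macrophage-like cells with a UMI, to between 3.79 and 42.8%: to 42.8% and 12.2% for Tnf, 31.7% and 32.1% for Tnfrsf1a, 13.2% and 10.0% for Tnfrsf1b, 20.5% and 3.79% for Traf1, and 8.52% and 5.88% for Traf2.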
